A study of Mus musculus with 6 samples.

Results

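A set of 36 genes was followed in mouse mammary carcinoma cells: the enzymes of glycolysis, the transporters and regulators that feed or drain it, and other genes that respond to low oxygen. The members were a fixed list, chosen with earlier results of these data known, so counts over it are descriptions. They were matched by gene symbol to the table of expression values, and all 36 were among its 16426 genes. They comprised 17 glycolytic enzymes (lactate dehydrogenases included), 4 transporters, 3 regulators of flux, 11 other targets of hypoxia-inducible factor (HIF) and Hif1a, which encodes the oxygen-regulated subunit of HIF-1. A member was tested where it reached 1 FPKM (fragments scaled to transcript length and to the size of the library) in at least 3 of the 6 libraries. A total of 32 members met this, and 4 did not.

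Glycolysis breaks glucose down to pyruvate in the cytosol, and tumour cells often turn that pyruvate into lactate even when oxygen is present. HIF is a pair of transcription factor subunits. Its alpha subunit is marked for destruction by prolyl hydroxylases that need oxygen, and when oxygen is short the pair binds a short DNA word, the hypoxia response element, near glycolytic, angiogenic and collagen-modifying genes. Because many glycolytic genes are HIF targets, glycolytic enzymes and other HIF targets commonly move together in hypoxic tumour cells.

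RNA came from 4T1-LM3 cells, a murine mammary carcinoma line. In 3 samples (Tdo2high MFs CM) the cells had received medium conditioned by matrix fibroblasts described as high in Tdo2, the gene of a tryptophan-degrading enzyme, and in 3 samples (Control CM) a control conditioned medium whose source cells are not stated in the labels. The labels give neither the time in medium nor the oxygen level, no sample is labelled hypoxic, and no sample had medium from fibroblasts low in Tdo2. The comparison set the fibroblast medium against this control medium. From which medium a difference in gene expression of the tumour cells came cannot be told.

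The 6 libraries were alike in scale. FPKM summed to between 438603 and 447415 per library, 10804 genes were tested, and Pearson's r across genes was 0.996 to 0.998 for any pair of libraries. Read depth is unknown, so precision is set by the number of libraries and their spread. Separate cultures are not stated in the labels, and p-values therefore reflect the spread among these 6 samples alone, which could be technical. Of 12 epithelial markers looked for, 11 were in the table, and 8 of these stayed below 1 FPKM in every library. The epithelial keratins Krt8 and Krt18 averaged 277 and 378 FPKM with Tdo2high MFs CM and 272 and 356 FPKM with Control CM, but Cdh1 and Epcam did not exceed 0.02 and 0.11 FPKM in any library. Of 12 fibroblast markers looked for, 9 were in the table. They summed to 125 to 130 FPKM with Tdo2high MFs CM and 114 to 119 FPKM with Control CM, and of 5 tested, Pdgfra and Npnt were higher and Dcn and Fap lower. Pdgfra averaged 47.3 FPKM with Tdo2high MFs CM and 41.9 FPKM with Control CM, and Npnt 43.2 and 31.2 FPKM. In the same order, Dcn averaged 10.9 and 15.5 FPKM, Fap 3.04 and 4.00 FPKM and Pdgfrb, also tested, 23.1 and 23.6 FPKM. The fibroblast collagens Col1a1 and Col1a2 did not exceed 0.12 and 0.01 FPKM in any library, and Lum did not exceed 0.03. The part of fibroblast marker genes in the results below was not tested.

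The members split without a common direction. With Tdo2high MFs CM, 2 of the 32 tested members rose, Vegfa and Aldoc, and 3 fell, P4ha1, P4ha2 and Pfkp, by limma at an adjusted p under 0.05 (Benjamini-Hochberg over all 10804 genes). Across all tested genes 7.41% were called in either direction, 3.35% higher and 4.06% lower, or 362 higher and 439 lower genes (455 and 367 with scaling by the median of ratios). The 5 called members are 15.6% of those tested. The fold changes were small: on the log2(FPKM + 1) scale, where fold changes of weakly expressed genes come out understated, members ran from -0.27 to 0.25, with a median of -0.009 beside -0.014 for all tested genes. The median absolute log2 fold change was 0.063 for members and 0.059 for all tested genes. In bulk RNA, fewer cells expressing a gene and less of its RNA per cell cannot be told apart.

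**Figure D1:**
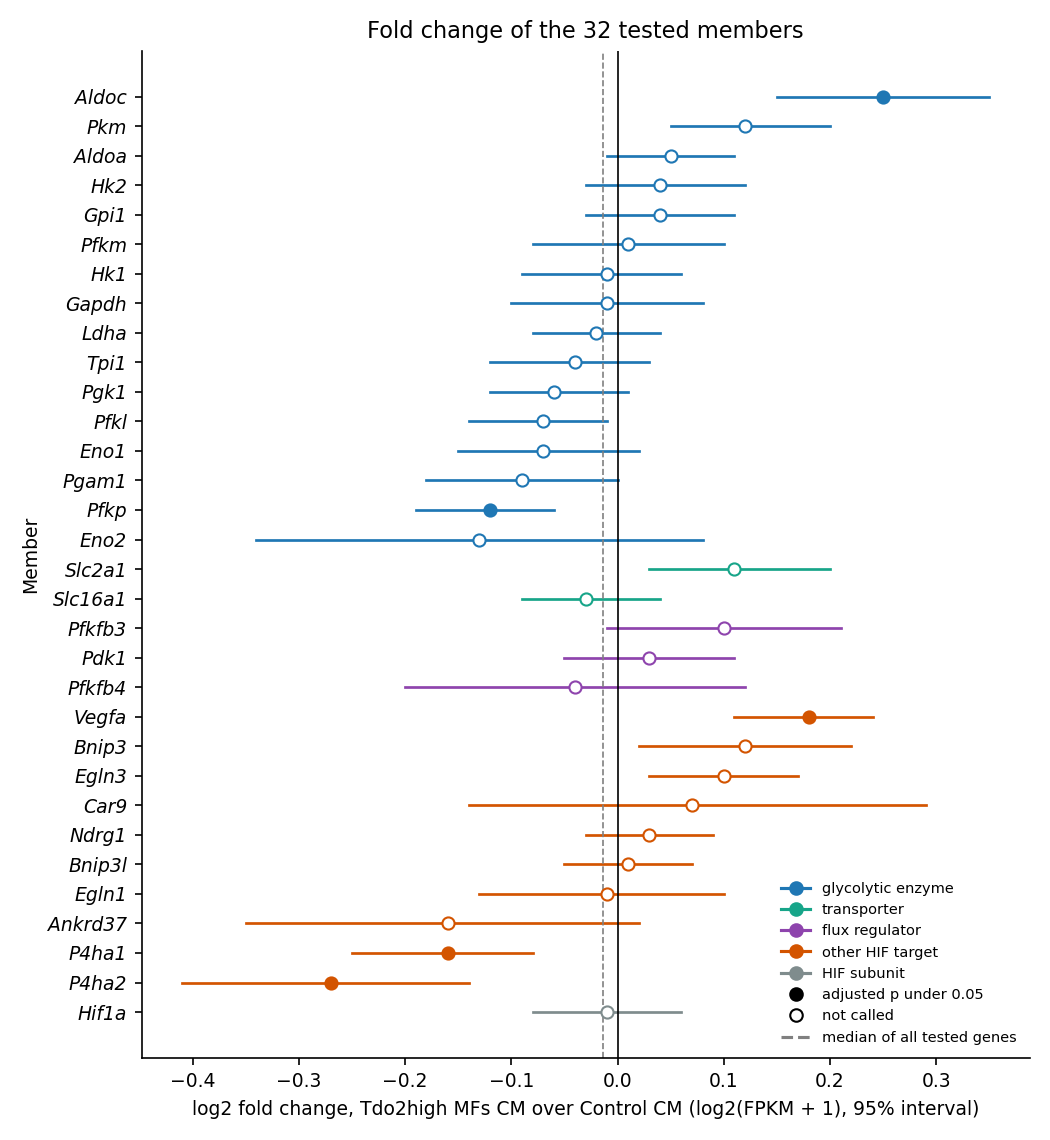
Log2 fold change of each tested member, Tdo2high MFs CM over Control CM, with its 95% interval from limma; colours give the class and filled points have an adjusted p under 0.05. The 5 filled points are Aldoc and Vegfa to the right of 0, and Pfkp, P4ha1 and P4ha2 to the left, while most open points have intervals that span 0.

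The 9 most abundant members were all glycolytic enzymes, and the other enzymes lay between Hk1, in place 12 of 36, and Ldhb, in the last place by Control CM mean. FPKM is scaled by transcript length, so levels can be set side by side between genes. Near-identical copies, described below, limit several of these levels. Gapdh, the dehydrogenase in the middle of the pathway, was the most abundant member at 2110.3 ± 37.4 FPKM with Tdo2high MFs CM and 2124 ± 78.6 FPKM with Control CM (SD, n = 3 each, as for all means here). Pkm, Eno1, Aldoa, Ldha, Tpi1, Pgk1, Gpi1 and Pgam1 followed in that order with either medium, down to Pgam1 at 123 ± 6.02 FPKM with Tdo2high MFs CM and 131 ± 5.37 FPKM with Control CM. Libraries of neighbouring genes in this order did not overlap within either group. The closest pair was Tpi1, at 232 to 239.5 FPKM with Tdo2high MFs CM and 232 to 253 FPKM with Control CM, and Pgk1, at 211 to 223 FPKM with Tdo2high MFs CM and 225 to 227 FPKM with Control CM. Summed over the 17 enzymes, FPKM was 5768, 5684 and 5580.1 with Tdo2high MFs CM and 5526, 5821 and 5625 with Control CM. The groups overlapped, and the sum was 1.28% of all FPKM in both.

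**Figure D2:**
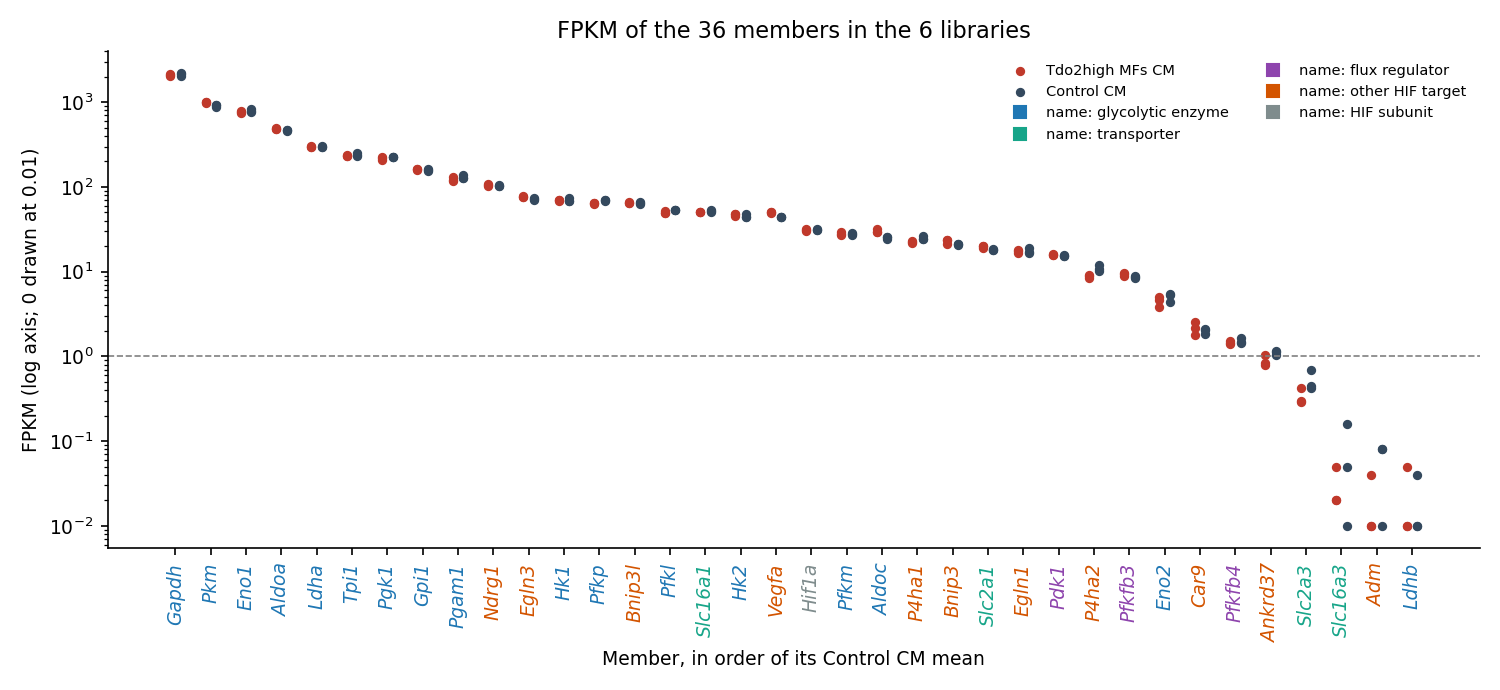
FPKM of the 36 members on a log axis, one point per library, with Tdo2high MFs CM left of Control CM for each gene and genes in order of their Control CM mean; the dashed line is 1 FPKM and name colours give the class. Levels run from a mean of 2124 FPKM with Control CM for Gapdh to 4 members under the line, whose libraries are spread out on this axis (0 is drawn at 0.01), while those of the abundant members lie close together.

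Slc2a1 (GLUT1) is the widespread glucose transporter. It had 18.9, 20.3 and 20.3 FPKM with Tdo2high MFs CM and 18.3, 18.4 and 18.1 FPKM with Control CM. All 3 libraries with Tdo2high MFs CM were above all 3 with Control CM, but the log2 fold change of 0.11 ± 0.04 (SE) did not pass (adjusted p = 0.111 by limma). Slc2a3 (GLUT3), a transporter of high affinity, stayed below the filter at 0.29 to 0.42 FPKM with Tdo2high MFs CM and 0.42 to 0.69 FPKM with Control CM. The hexokinases, which trap glucose as its phosphate, did not pass. The log2 fold change was -0.01 for Hk1 (95% interval -0.09 to 0.06) and 0.04 for Hk2, the form that HIF is known to induce (-0.03 to 0.12). Hk2 made up 39.5 to 40.8% of the summed FPKM of the pair with Tdo2high MFs CM and 39.3 to 39.4% with Control CM. Gpi1, which converts glucose phosphate to fructose phosphate, had 0.04 (-0.03 to 0.11).

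Phosphofructokinase, the main control point of the pathway, is built from 3 isozyme subunits, and the platelet form Pfkp fell. Pfkp had 63.2, 65.3 and 64.0 FPKM with Tdo2high MFs CM and 68.4, 70.9 and 70.4 FPKM with Control CM. The groups did not overlap, and the difference was -8.24% (log2 fold change -0.12 ± 0.03 SE, adjusted p = 0.0306 by limma). The call ended in 8 of 16 alternative settings, in 5 of them by leaving out 1 library (any Tdo2high MFs CM library, or Control CM replicate 2 or 3), and adjusted p over all alternatives ran from 0.0200 to 0.0958. The liver form Pfkl had 52.0, 49.3 and 49.7 FPKM with Tdo2high MFs CM and 53.1, 52.9 and 53.1 FPKM with Control CM, also without overlap, but did not pass (-0.07, adjusted p = 0.177). The muscle form Pfkm had 0.01 (95% interval -0.08 to 0.10). Pfkp was the most abundant form in every library, with 45.0 ± 1.10% of the summed FPKM of the 3 forms with Tdo2high MFs CM and 46.3 ± 0.420% with Control CM, shares that overlapped. Exons of Pfkp overlap those of Pitrm1 on the opposite strand, and whether counting used strand is not stated in the sources used here; Pitrm1 had a log2 fold change of -0.03 (adjusted p = 0.611).

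Pfkfb3 and Pfkfb4 make and remove the small sugar phosphate that activates phosphofructokinase. Pfkfb3, whose kinase activity dominates, had 9.72, 8.84 and 9.44 FPKM with Tdo2high MFs CM and 8.91, 8.57 and 8.39 FPKM with Control CM. The groups overlapped, and 0.10 did not pass (adjusted p = 0.236). Pfkfb4 was low, at 1.45 ± 0.0551 FPKM with Tdo2high MFs CM and 1.51 ± 0.104 FPKM with Control CM (-0.04, 95% interval -0.20 to 0.12).

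Aldolase splits the doubly phosphorylated sugar into trioses, and its less abundant isozyme Aldoc, best known from brain, rose. Aldoc had 32.1, 29.0 and 29.4 FPKM with Tdo2high MFs CM and 24.3, 25.9 and 25.5 FPKM with Control CM. Every library with Tdo2high MFs CM was above every library with Control CM. The mean was 19.6% higher (log2 fold change 0.25 ± 0.04 SE, adjusted p = 0.00930 by limma), and Aldoc passed in all 16 alternatives, at adjusted p up to 0.0451. Aldoa, the main form, also had no overlap between groups, with 493, 479.6 and 479 FPKM with Tdo2high MFs CM and 461, 468 and 471 FPKM with Control CM, but its 0.05 did not pass (adjusted p = 0.299). Aldoc thus made up 6.11, 5.71 and 5.78% of the summed FPKM of the pair with Tdo2high MFs CM and 5.0, 5.25 and 5.13% with Control CM.

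Among the members, the lower steps of glycolysis gave no call. The log2 fold change of Tpi1, which interconverts the trioses, was -0.04 (95% interval -0.12 to 0.03) and that of Gapdh was -0.01 (-0.10 to 0.08). Gapdh, commonly used as a reference gene, was called lower under quantile normalization only (-0.18, adjusted p = 0.00207). The ATP-making kinase Pgk1 had 223, 217 and 211 FPKM with Tdo2high MFs CM and 226, 225 and 227 FPKM with Control CM, without overlap, and did not pass (-0.06, adjusted p = 0.255). Pgam1, the mutase, had -0.09 (-0.18 to 0.00) and Eno1, the main enolase, -0.07 (-0.15 to 0.02). Eno2, the neuronal enolase, averaged 4.53 ± 0.596 FPKM with Tdo2high MFs CM and 5.04 ± 0.626 FPKM with Control CM (-0.13, -0.34 to 0.08).

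Pkm, the pyruvate kinase that yields the second ATP, came close to the threshold. It had 1000.1, 1002 and 977 FPKM with Tdo2high MFs CM and 923, 936 and 879.8 FPKM with Control CM. The groups did not overlap, and Pkm was 8.79% higher in mean (log2 fold change 0.12 ± 0.03 SE, adjusted p = 0.0602 by limma). Over the 16 alternatives adjusted p ran from 0.0363 to 0.168 and passed in 5, including scaling by the median of ratios (0.0430), scaling to TPM (0.0493) and leaving out Control CM replicate 2 (0.0412). The table has 1 row per gene, so the splice forms of Pkm are not separated.

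At the exit, Ldha, which turns pyruvate into lactate, had 299, 302 and 296 FPKM with Tdo2high MFs CM and 299.7, 308 and 299 FPKM with Control CM (log2 fold change -0.02, 95% interval -0.08 to 0.04). The groups overlapped. Its partner subunit Ldhb was listed at 0 in 4 libraries and did not exceed 0.05 FPKM in any. Of the lactate carriers, Slc16a1 (MCT1) had -0.03 (-0.09 to 0.04) at 50.7 ± 0.308 FPKM with Tdo2high MFs CM and 51.7 ± 1.40 FPKM with Control CM. Slc16a3 (MCT4), the exporter that HIF is known to induce, did not exceed 0.05 FPKM with Tdo2high MFs CM or 0.16 FPKM with Control CM. Pdk1, the kinase that holds pyruvate back from the mitochondrion and a known HIF target, had 0.03 (-0.05 to 0.11).

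Near-identical copies limit several of these values. In the GENCODE annotation of the same genome build, 11 members had at least 1 pseudogene sharing 95% identity over 200 or more bases, and Gapdh had 71. The others were Pgk1 (4), Ldha and Bnip3 (3 each), Eno1 (2), and Gpi1, Tpi1, Pgam1, Pkm, Ldhb and Bnip3l (1 each). Gapdh also matched 3 genes annotated as coding, Gm10358, Gm3839 and Vmn2r60, and Eno1 has the coding copy Eno1b, listed at 1.98 ± 0.652 FPKM with Tdo2high MFs CM and 1.52 ± 0.0473 FPKM with Control CM. None of the 5 called members had such a copy. Exons of 13 members, Pfkp among them, overlap an exon on the opposite strand. Exons of Pfkm, Pkm and Hif1a overlap an exon of another gene on the same strand (Gm26513, Gm49759 and Gm49321).

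Among the regulators of HIF, the transcript of Hif1a itself did not pass: it had 31.8, 30.3 and 31.0 FPKM with Tdo2high MFs CM and 30.6, 31.8 and 31.3 FPKM with Control CM (log2 fold change -0.01, 95% interval -0.08 to 0.06). The groups overlapped. HIF-1 alpha is controlled mostly through its protein, which RNA does not measure. Egln3 (PHD3), an oxygen sensor that is itself a HIF target, had 76.2, 78.7 and 76.2 FPKM with Tdo2high MFs CM and 69.5, 71.4 and 74.7 FPKM with Control CM. All libraries with Tdo2high MFs CM were above those with Control CM, but 0.10 ± 0.03 (SE) did not pass (adjusted p = 0.0982 by limma). Egln1 (PHD2), the main sensor, had -0.01 (-0.13 to 0.10) at a lower level than Egln3, with 17.3 ± 0.783 FPKM with Tdo2high MFs CM and 17.5 ± 1.16 FPKM with Control CM.

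Vegfa, the growth factor that draws in blood vessels, rose. It had 50.9, 49.1 and 50.0 FPKM with Tdo2high MFs CM and 44.5, 43.7 and 44.2 FPKM with Control CM. The gap between groups was wider than the range within either. Vegfa was 1.13-fold higher (log2 fold change 0.18 ± 0.03 SE, 95% interval 0.11 to 0.24, adjusted p = 0.00591 by limma), and it passed in all 16 alternatives, at adjusted p up to 0.0299. On GRCm38, Vegfa lies on chromosome 17 from 46016993 to 46032377 on the minus strand.

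P4ha1 and P4ha2, the alternative catalytic subunits of the prolyl hydroxylase that stabilises collagen, both fell. P4ha2 had 9.19, 8.99 and 8.51 FPKM with Tdo2high MFs CM and 10.6, 10.3 and 12.1 FPKM with Control CM. The difference was -19.0% (log2 fold change -0.27 ± 0.06 SE, adjusted p = 0.0237 by limma), the largest fall among the called members. Control CM replicate 3 was the highest library, and without it the log2 fold change was -0.21 and the call ended (adjusted p = 0.0601). The call also ended without Tdo2high MFs CM replicate 2 (0.0644) or replicate 3 (0.0783) and with no filter on low values (0.0850), the highest of a range that began at 0.0183.

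P4ha1 had 22.8, 22.4 and 21.6 FPKM with Tdo2high MFs CM and 24.6, 24.3 and 26.2 FPKM with Control CM. Again the groups did not overlap and Control CM replicate 3 was highest. The difference was -11.1% (-0.16 ± 0.04, adjusted p = 0.0328). The P4ha1 call ended in 9 of 16 alternatives, in 5 of them by leaving out 1 library (all but Control CM replicate 2), over adjusted p of 0.0267 to 0.110. P4ha1 made up 71.2, 71.3 and 71.8% of the summed FPKM of the pair with Tdo2high MFs CM and 69.8, 70.3 and 68.5% with Control CM, shares that did not overlap between groups. P4ha1 lies on chromosome 10 from 59323197 to 59373304 and P4ha2 on chromosome 11 from 54100924 to 54131668.

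**Figure D3:**
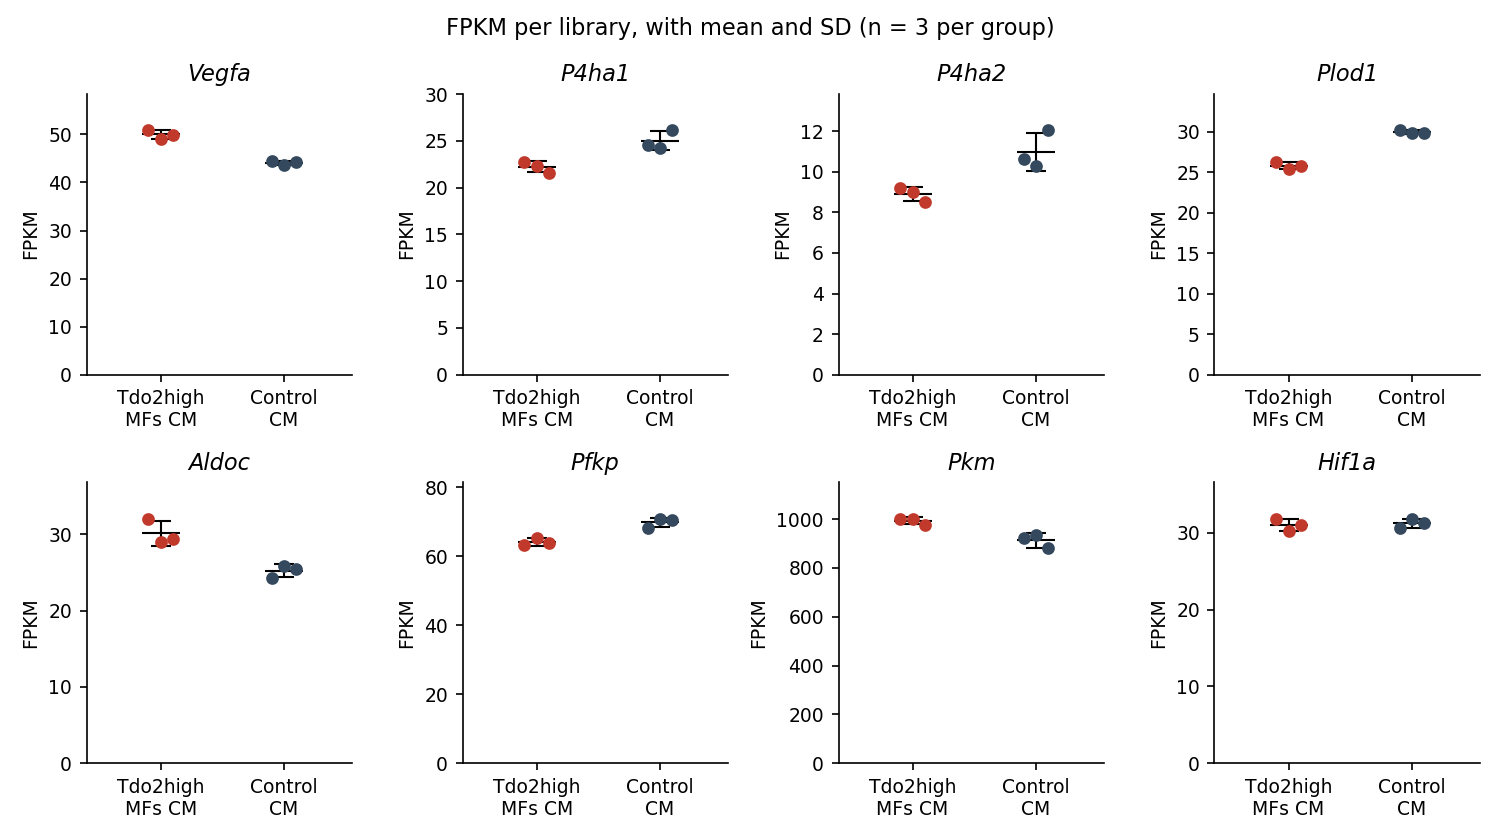
FPKM per library for the 5 called members, for Plod1, a called collagen-modifying gene outside the member list, and for Pkm and Hif1a, with bars for mean and SD (n = 3 per group) and axes from 0. Vegfa, Aldoc and Pkm are higher and P4ha1, P4ha2, Plod1 and Pfkp lower with Tdo2high MFs CM without overlap, while Hif1a overlaps.

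The remaining HIF targets did not pass. Bnip3, a mitophagy receptor, had 21.5, 23.8 and 23.5 FPKM with Tdo2high MFs CM and 20.4, 21.2 and 21.4 FPKM with Control CM. The groups were separate by a narrow margin (0.12 ± 0.04, adjusted p = 0.127), and without Tdo2high MFs CM replicate 1 it passed (0.17, adjusted p = 0.0497). Its relative Bnip3l had 0.01 (95% interval -0.05 to 0.07). Ndrg1, a stress-induced gene that is strongly hypoxia-responsive in many tumour lines, had 106 ± 1.60 FPKM with Tdo2high MFs CM and 103 ± 1.31 FPKM with Control CM (0.03, -0.03 to 0.09). Car9, the carbonic anhydrase widely used as a hypoxia marker, was low, with 2.16, 1.77 and 2.58 FPKM with Tdo2high MFs CM and 2.13, 1.83 and 2.04 FPKM with Control CM (0.07, -0.14 to 0.29). Adm, the vasodilator adrenomedullin, did not exceed 0.04 FPKM with Tdo2high MFs CM or 0.08 FPKM with Control CM.

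Ankrd37 stood at the edge of the filter and Slc2a3 below it. Ankrd37, an ankyrin-repeat gene known as a HIF target, was just inside with 0.83, 1.03 and 0.80 FPKM with Tdo2high MFs CM and 1.13, 1.03 and 1.17 FPKM with Control CM (-0.16, adjusted p = 0.273), so it met the filter mainly through Control CM. Slc2a3 had no library above 0.69 FPKM.

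Set against each other, the glycolytic enzymes and the other HIF targets each contained changes in both directions. Of 16 tested enzymes 1 rose, 1 fell and 14 did not pass, or 12.5% called. Of 10 tested other HIF targets 1 rose, 2 fell and 7 did not pass, or 30.0%. Across all tested genes the share was 7.41%, and both classes are too small to read a difference from such counts. The median log2 fold change was -0.014 for the enzymes and 0.022 for the other HIF targets, with 6 of 16 and 6 of 10 above 0. Of all 10804 tested genes, 4709 were above 0. Relative to the mean of the Control CM libraries, the median enzyme lay at -0.009, -0.031 and -0.029 (log2) in the Tdo2high MFs CM libraries and at -0.027, 0.024 and 0.008 in the Control CM libraries. The median other HIF target lay at 0.009, 0.026 and 0.026 with Tdo2high MFs CM and at -0.020, -0.011 and 0.022 with Control CM. The groups overlapped for both classes. No overlap between groups was seen in 12 of 32 members, 7 higher and 5 lower. Of all tested genes 29.2% showed none, 11.6% higher and 17.5% lower.

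The letters of the core hypoxia response element were looked up upstream of the members. ACGTG and GCGTG were searched on both strands in the 250 bases before each RefSeq start site (GRCm38.p6), with overlapping matches such as those in CACGTG, which is also the E-box bound by MYC-type factors, counted as 1 stretch. Of the members, 33 had a window and 30 had a match in at least 1 window. Of 47 windows of members, 38 held a match (80.9%), as did 38.6% of all 32851 windows. Since members were chosen partly as known HIF targets, this is a description of the list. By class, 14 of 17 enzymes and 9 of 9 other HIF targets with a window had a match, so members with and without a call both carried the letters.

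The sequences before the gene start are shown for called members, since these are where the letters can be set against a change, and for Pgk1 and Bnip3, which carried matches and were not called. All are on GRCm38.p6, written 5′ to 3′ on the strand of the gene, with matches in capitals.
Vegfa (chr17:46032378-46032627, - strand): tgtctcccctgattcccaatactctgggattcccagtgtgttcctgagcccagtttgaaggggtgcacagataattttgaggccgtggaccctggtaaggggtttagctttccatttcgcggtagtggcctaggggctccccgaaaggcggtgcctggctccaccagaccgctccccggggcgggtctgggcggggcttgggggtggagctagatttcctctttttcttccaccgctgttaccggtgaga
P4ha1 (chr10:59323046-59323196, + strand): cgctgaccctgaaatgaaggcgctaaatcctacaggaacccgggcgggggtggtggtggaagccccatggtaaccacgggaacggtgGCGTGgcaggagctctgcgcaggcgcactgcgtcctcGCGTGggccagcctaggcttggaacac
P4ha2 (chr11:54100674-54100923, + strand): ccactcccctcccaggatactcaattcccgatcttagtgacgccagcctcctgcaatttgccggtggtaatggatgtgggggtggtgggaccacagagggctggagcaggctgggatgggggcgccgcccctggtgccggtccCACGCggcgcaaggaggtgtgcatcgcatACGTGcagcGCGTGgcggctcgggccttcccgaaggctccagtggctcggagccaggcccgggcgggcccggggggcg
Aldoc (chr11:78322823-78323072, + strand): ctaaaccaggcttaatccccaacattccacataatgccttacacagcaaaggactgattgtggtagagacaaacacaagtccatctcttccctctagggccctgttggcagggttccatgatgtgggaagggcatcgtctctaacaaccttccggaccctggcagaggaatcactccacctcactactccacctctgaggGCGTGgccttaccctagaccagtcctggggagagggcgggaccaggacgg
Pgk1 (chrX:106186850-106187099, + strand): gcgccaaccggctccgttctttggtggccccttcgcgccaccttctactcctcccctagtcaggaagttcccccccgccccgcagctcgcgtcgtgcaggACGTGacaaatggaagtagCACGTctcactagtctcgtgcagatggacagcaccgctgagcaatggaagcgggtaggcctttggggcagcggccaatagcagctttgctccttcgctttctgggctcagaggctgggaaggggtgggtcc
Bnip3 (chr7:138909507-138909756, - strand): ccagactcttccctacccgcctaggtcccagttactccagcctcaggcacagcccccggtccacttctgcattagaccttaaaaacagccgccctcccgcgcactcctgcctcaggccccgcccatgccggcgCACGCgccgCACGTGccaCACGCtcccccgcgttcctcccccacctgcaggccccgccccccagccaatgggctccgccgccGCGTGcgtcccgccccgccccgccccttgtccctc
The stretch before Vegfa, which rose, held no match. A second RefSeq window of Vegfa, at an inner start site and so not shown, held 2, and the well-known response element of the gene lies farther upstream than the stretch shown. Those before P4ha1 and P4ha2, which fell, held 2 and 3, and that before Aldoc, which rose, held 1. A second window of Aldoc, also at an inner start site, held 1, and the whole window of P4ha1, which runs into the gene, held 3. Pgk1 had 2 and Bnip3 had 4, among them a CACGTG. A match describes the letters and says nothing of binding. For Pfkp the RefSeq window lay inside the longest gene model and is not shown, but it held 3. The windows of Gpi1, Tpi1 and Eno2, which were not called, held no match.

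Related genes outside the list placed these changes in the wider pathway. The pentose phosphate pathway branches from glycolysis at glucose phosphate and makes NADPH. Of its 10 tested genes 3 rose and none fell, or 30.0% called beside 7.41% of all tested genes. This list and those below were chosen with earlier results of these data known, so counts over them are descriptions. The 3 that rose were Pgd, G6pdx and Tkt. Pgd, the second NADPH-making dehydrogenase, was 1.60-fold higher (log2 fold change 0.67 ± 0.03 SE, adjusted p = 7.26e-07 by limma). G6pdx, the entry enzyme, had 143, 139 and 145 FPKM with Tdo2high MFs CM and 107, 113 and 109.5 FPKM with Control CM. These values did not overlap (0.37 ± 0.03, adjusted p = 1.20e-04). Tkt, a transketolase that returns sugars to glycolysis, had 216, 213 and 213 FPKM with Tdo2high MFs CM and 177, 181 and 174 FPKM with Control CM (0.27 ± 0.03, adjusted p = 3.76e-04). The other 7 did not pass, among them Rpia (-0.17, adjusted p = 0.111) and Taldo1 (-0.05), and the median of the 10 was 0.018.

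Of 16 tested further isozymes of glycolysis and linked genes, none rose and 1 fell, or 6.25% called beside 7.41% of all tested genes. It was Eno3, the muscle enolase, which had 106, 107 and 108 FPKM with Tdo2high MFs CM and 116, 127 and 116 FPKM with Control CM (-0.16 ± 0.04, adjusted p = 0.0266 by limma). Eno3 was thus more abundant than the member Eno2 in every library. Its call ended in 5 of 16 alternatives, without any 1 of the Tdo2high MFs CM libraries among them, and adjusted p ran up to 0.0845. None of 31 tested genes of pyruvate entry and the TCA cycle passed by limma, with a median of -0.003. Of the 31, 3 had an unadjusted p under 0.05 by limma, as did 2564 of all 10804 tested genes. Pdk2, a relative of Pdk1, had 0.16 (adjusted p = 0.0840).

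Of 26 tested further HIF targets, 1 rose and 2 fell, or 11.5% called beside 7.41% of all tested genes, with a median of -0.047. Gbe1, the glycogen branching enzyme, rose and had 15.7, 16.1 and 15.8 FPKM with Tdo2high MFs CM and 11.1, 11.4 and 11.3 FPKM with Control CM (0.46 ± 0.04, adjusted p = 7.71e-05 by limma). Plod1, a lysyl hydroxylase that like P4ha1 and P4ha2 modifies collagen, fell, with 26.2, 25.4 and 25.7 FPKM with Tdo2high MFs CM and 30.2, 29.8 and 29.8 FPKM with Control CM (-0.21 ± 0.03, adjusted p = 0.00362). Pdgfb, a platelet-derived growth factor chain, fell as well (-0.33 ± 0.05, adjusted p = 0.00695). The lysyl hydroxylase Plod2 (-0.05, adjusted p = 0.327), Kdm3a, a histone demethylase induced by hypoxia (0.13, adjusted p = 0.0721), Ddit4 (-0.01) and Hilpda (0.03) did not pass. None of 10 tested genes of the HIF machinery passed, and none had an unadjusted p under 0.05, where 2564 of all 10804 tested genes did. Among the 10 were Arnt, the partner of HIF-1 alpha (-0.04), Vhl, which tags it for destruction (-0.04), and Hif1an (0.03). Epas1, which encodes HIF-2 alpha, did not exceed 0.03 FPKM in any library.

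**Figure D4:**
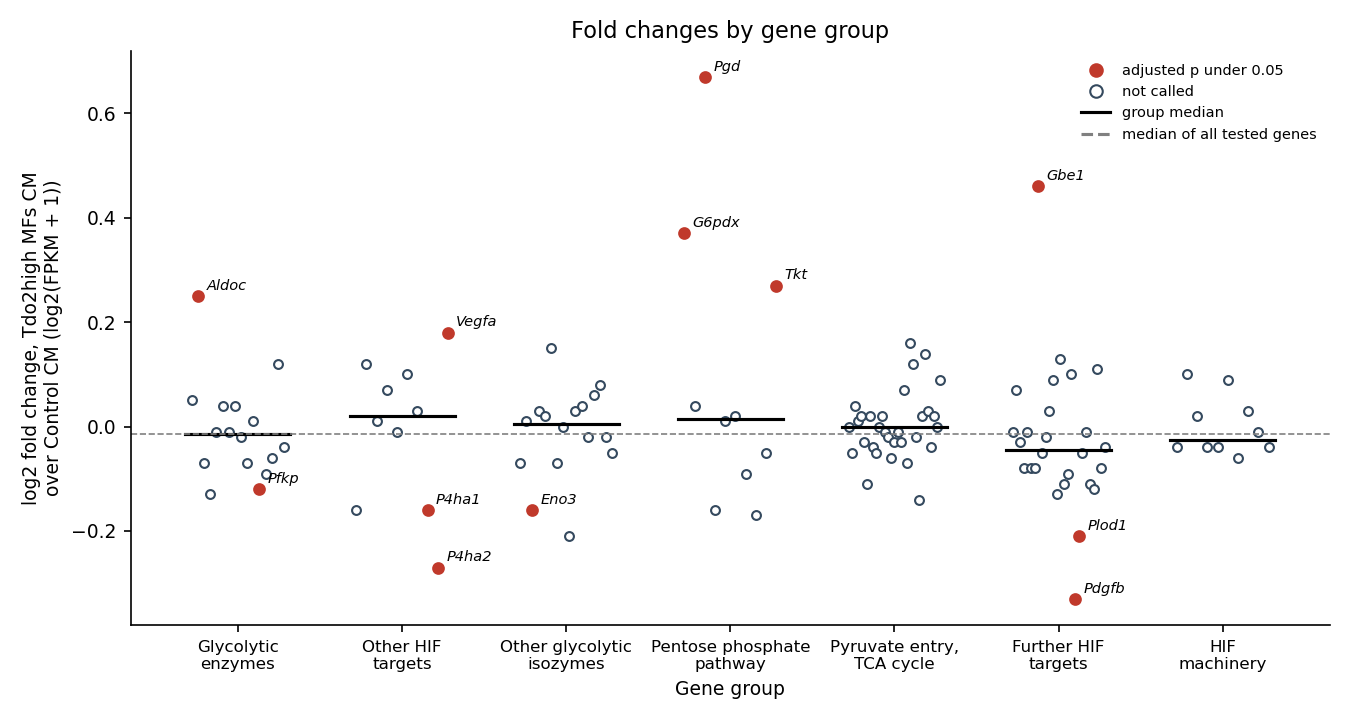
Log2 fold change, Tdo2high MFs CM over Control CM, of each tested gene in 7 groups; filled points are called at an adjusted p under 0.05, the black bar is the group's median and the dashed line the median of all tested genes. Medians lie near the dashed line in all groups, and single called genes stand away from them, the highest being Pgd at 0.67.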

How the data were processed

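PolyA RNA of 6 samples was copied with random hexamers and sequenced at BGI, per the labels' protocols. The authors deposited FPKM for 16426 genes, per the file headers, rounded to 2 decimals; the build was GRCm38, per the submitters' processing notes (aligner, quantifier and annotation: not given in the sources used here). FPKM is relative to the library's total, so a change in abundant genes shifts the rest. Low values (6936 up to 0.6 FPKM) lay at a mean distance of 0.233 from whole multiples of the gene's smallest value, against 0.255 after exchange between genes. The values lay slightly nearer to whole multiples than exchanged ones. Smallest values from 0.05 FPKM were used, where rounding to 2 decimals is coarse, and whole reads were not recovered. Depth is unknown, and no counting interval is given.

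Samples were grouped by title. Genes with at least 1 FPKM in at least 3 libraries (10804; 5622 left out) were tested as log2(FPKM + 1) with limma 3.58.1 in R 4.3.3 (intensity trend, two-sided, Benjamini-Hochberg over all tested genes, threshold 0.05, 95% intervals), after a check on simulated data. An exact permutation test of 3 against 3 cannot go below p = 0.1, so none was run. The members and lists were chosen with earlier results of these data known, so counts over them are descriptions. All 36 members are named, plus up to 4 called genes per further list with the largest change; other genes named as examples were chosen after their values were seen. The 16 alternatives cover pseudocount, filter, scaling, variance model, replicate block and leaving out each library. Copies were searched with blastn 2.17.0; figures used matplotlib 3.10.9.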

Additional observations from a re-analysis of the deposited data

How the results depend on the processing

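Aldoc and Vegfa passed in all 16 alternatives, 24 of the 27 members not called passed in none, and none of the 12 called genes followed through the alternatives (5 members and 7 related genes) changed sign. The 3 falls were less stable. Members called lower numbered 3 as reported, 0 with no filter on low values, 1 with no intensity trend and 0 to 2 without 1 library; members called higher numbered 2 to 3 without 1 library. All genes called numbered 801 as reported, 394 with no filter on low values (16397 genes tested), 525 with no intensity trend and 395 to 559 without 1 library. The cause was not tested. The median log2 fold change of glycolytic enzymes (-0.014) was -0.037 under quantile normalization and -0.035 to -0.006 without 1 library, lowest without Control CM replicate 1. That of other HIF targets (0.022) was -0.001 to 0.033 without 1 library, lowest without Tdo2high MFs CM replicate 3. With the replicate block, 622 genes were called (296 higher, 326 lower), among them 2 members higher and 2 lower, and P4ha1 had adjusted p = 0.0678 by limma; same-numbered samples did not deviate together (r of -0.023, -0.030 and 0.018 across genes), and 0 of 6 correlated best with their own number. Pgd, G6pdx, Tkt, Gbe1, Plod1 and Pdgfb passed in all 16. Rounding to 2 decimals limits Slc16a3, Ldhb and Adm, and less so Slc2a3, whose Control CM libraries ran from 0.42 to 0.69 FPKM.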
